A study of Drosophila melanogaster with 4 samples.

Results

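The regions described here are places of ZW5 ChIP-seq enrichment that lay outside the large chromosome arms, on chromosome 4, on the heterochromatic scaffolds whose names end in Het, and on U. They were taken from the list of enriched regions that the authors deposited for both replicates together, called the combined list, by the scaffold name alone. There were 298 of them among the 5135 regions of the list (5.80%), with 13 on chromosome 4, 162 on U and 123 on the Het scaffolds. Chromosome 4, U and the Het scaffolds are called the outlying scaffolds here, and the arms 2L, 2R, 3L, 3R and X, which held the other 4837 regions, the large arms. U collects sequence that was not placed on any chromosome. The labels do not call it heterochromatin, so values for U and for the Het scaffolds are also given apart where the pooled value could hide a difference between them.

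The study mapped ZW5 in wild-type Oregon-R embryos of Drosophila melanogaster 14 to 16 h old, with no mutant or treated group. The labels give 2 ChIP libraries made with an antibody against ZW5 and 2 input libraries of genomic DNA, numbered 1 and 2 in each group. Whole embryos were used, so a region can come from any cell type of the embryo. Whether libraries 1 and 2 stem from different embryo collections is not in the labels. Each ChIP library has a list of enriched regions of its own, with 673 regions in replicate 1 and 1057 in replicate 2. No reads were analysed here, so depth is unknown and intervals and tests cover counting error only. Regions are not replicates of a condition, so these p-values do not cover differences between embryo collections.

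ZW5 (zeste-white 5) is a DNA-binding protein with zinc fingers, known for its place on the scs element, a boundary at a heat shock locus that keeps an enhancer from acting across it. Heterochromatin is the compact part of the fly genome around the centromeres, rich in satellite DNA and in remnants of transposable elements and marked by methylated histone H3 and the protein HP1a. A short read from a repeated sequence can align to several places. Chromosome 4 is a small chromosome that carries active genes inside chromatin with many of the same marks. Sequences and genes at the positions below are not given, since no genome or annotation of the build of the files, FlyBase release 5, was used here.

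The outlying scaffolds held fewer regions per Mb than the large arms but more regions with a high score. They had 14.4 regions per Mb (95% exact Poisson interval 12.8 to 16.1), against 40.6 on the large arms (39.5 to 41.8), a ratio of 0.355 (exact interval 0.314 to 0.399; exact conditional binomial test, adjusted p = 1.04e-90 over 10 scaffold comparisons). For regions with a score of at least 1, called strong here, the order turned round. There were 6.53 strong regions per Mb on the outlying scaffolds (5.47 to 7.73), against 1.69 on the large arms (1.46 to 1.94), a ratio of 3.87 (3.08 to 4.83; exact test, adjusted p = 6.33e-29). The score is a value the authors gave each region, on a scale the sources used here leave unstated. The pooled excess was not found in the replicates' own lists or among wider regions. In replicate 1 and among wider regions the ratios of U and the Het scaffolds lay on different sides of 1. Of these ratios only that of the Het scaffolds in replicate 1 passed the adjusted test. In replicate 2 both lay below 1. In the replicates' own lists the pooled ratio was 0.965 (0.622 to 1.45; exact test, adjusted p = 1) for replicate 1 and 0.228 (0.0902 to 0.479; exact test, adjusted p = 1.58e-05) for replicate 2. Among combined-list regions at least 1301 bp wide, the narrowest width in either replicate list, it was 0.971 (0.621 to 1.47; exact p = 1). At that width U alone had a ratio of 1.55 (0.937 to 2.46; exact test, adjusted p = 0.346) and the Het scaffolds 0.401 (0.128 to 0.955; exact test, adjusted p = 0.343). In replicate 1 the ratio was 1.77 on U (1.12 to 2.71; exact test, adjusted p = 0.0511) and 0.154 on the Het scaffolds (0.0184 to 0.564; exact test, adjusted p = 0.00530). In replicate 2 it was 0.468 on U (0.186 to 0.986, exact test, adjusted p = 0.0964) and 0 on the Het scaffolds (0 to 0.270, exact test, adjusted p = 1.58e-05).

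**Figure D1:**
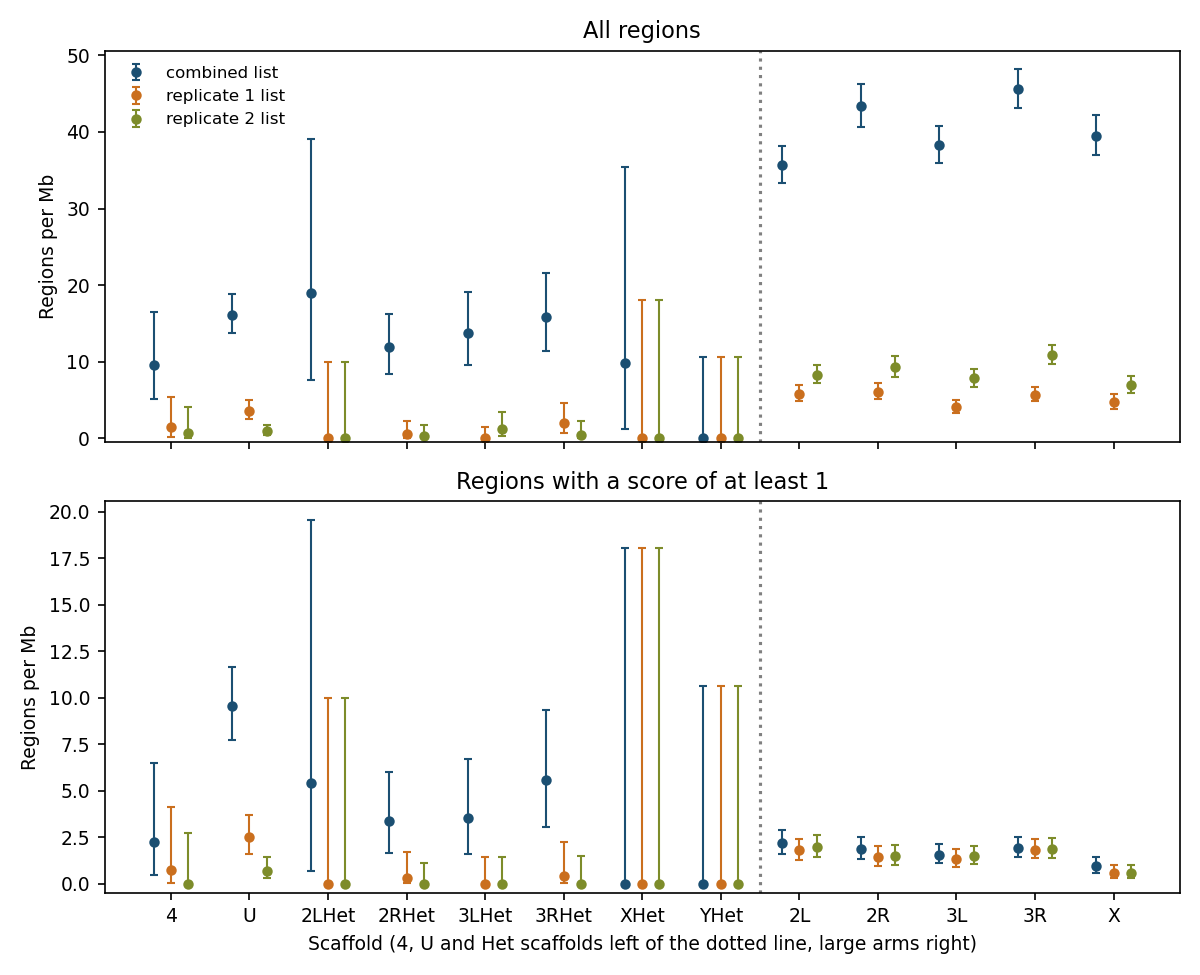
Regions per Mb of header length (vertical axis) on each scaffold (horizontal axis) in the combined list and the lists of replicates 1 and 2, for all regions (top) and for regions with a score of at least 1 (bottom). Points are densities and bars 95% exact Poisson intervals; in the top panel every outlying scaffold except 2LHet and XHet has a combined-list interval wholly under those of the large arms, while in the bottom panel U stands highest at 9.55 strong regions per Mb.

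Each of the outlying scaffolds held fewer regions per Mb than the large arms. In the combined list, 2LHet held 7 regions (19.0 per Mb, interval 7.63 to 39.1), 3RHet 40 (15.9 per Mb, 11.4 to 21.6) and 3LHet 35 (13.7 per Mb, 9.54 to 19.0). The 39 regions of 2RHet came to 11.9 per Mb (8.43 to 16.2), and the 2 regions of XHet to 9.80 per Mb (1.19 to 35.4). U had 16.1 per Mb (13.7 to 18.8) and chromosome 4 had 9.62 (5.12 to 16.4). Neighbours in this order had overlapping intervals. YHet held no region in any list, which for its 0.347 Mb allows up to 8.64 per Mb. All 8 passed the exact test, with the highest adjusted p on 2LHet (ratio 0.467, interval 0.188 to 0.963; adjusted p = 0.0371). Uextra, a further collection of unplaced sequence that is named in the headers and was not counted with the outlying scaffolds, held no region either in its 29.0 Mb. The headers do not say how much of each length is gap or sequence to which short reads cannot be assigned, and its part in the densities was not tested.

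Strong regions were spread unevenly over these scaffolds, with most of them on U. Of the 298 regions, 135 were strong (45.3%, 95% Wilson interval 39.7 to 51.0), against 201 of 4837 on the large arms (4.16%, 3.63 to 4.76), and 6.54% of the whole list. The difference was 41.1 percentage points (Newcombe interval 35.6 to 46.9). U held 96 strong regions of 162 (59.3%, 51.6 to 66.5) and the Het scaffolds 36 of 123 (29.3%, 22.0 to 37.8), which differed by 30.0 points (18.5 to 40.3). Without U the share of strong regions was 28.7% (21.7 to 36.8). Per Mb, strong regions on U were 5.66-fold as dense as on the large arms (interval 4.39 to 7.25; exact test, adjusted p = 2.71e-33) and on the Het scaffolds 2.30-fold (1.56 to 3.29; exact test, adjusted p = 8.13e-05). Of the single Het scaffolds 3RHet passed the test, with 14 strong regions and a ratio of 3.29 (1.77 to 5.66; exact test, adjusted p = 0.000462). Chromosome 4 did not, with 3 strong regions and a ratio of 1.31 (0.269 to 3.90; exact test, adjusted p = 0.627).

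Scores on the outlying scaffolds were high in general, without reaching the very top of the list. Their median was 0.89 (distribution-free 95% interval 0.83 to 1.02), at percentile 92.9 of the combined list, against 0.39 (0.38 to 0.39) and percentile 47.6 on the large arms. The median was 1.13 on U, 0.64 on the Het scaffolds and 0.42 on chromosome 4, and it ranged from 0.41 on XHet to 0.73 on 2LHet among the Het scaffolds. The quartiles of the scores were 0.55 and 1.52 on the outlying scaffolds, against 0.34 and 0.43 on the large arms. None of the 50 highest scores of the list lay on an outlying scaffold. The first was at rank 54, a region on U with a score of 3.38. Among the 100 highest scores 11 were on outlying scaffolds, among the 200 highest 46 and among the 336 strong regions 135 (40.2%).

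**Figure D2:**
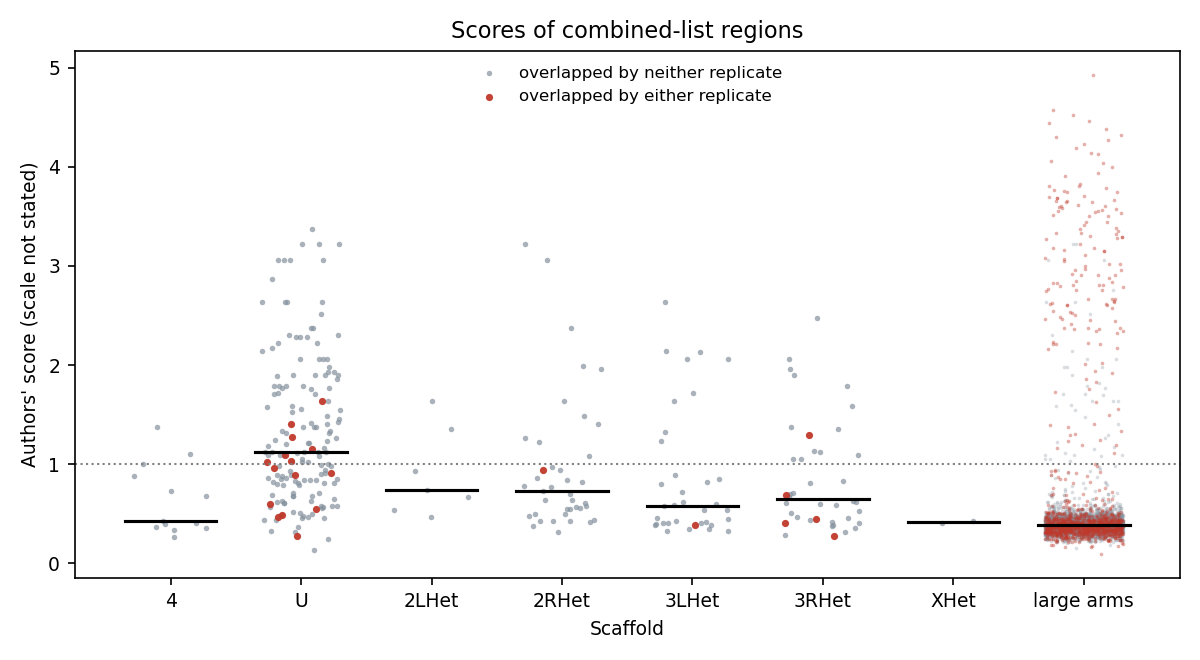
The authors' score (vertical axis, scale not stated) of each combined-list region on chromosome 4, U, the Het scaffolds and the large arms (horizontal axis, points spread sideways for view). Bars are medians, the dotted line marks a score of 1, and red points were overlapped by a region of either replicate; on the outlying scaffolds no red point lies above 1.64, while on the large arms most points above 2 are red.

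The 10 regions with the highest scores on the outlying scaffolds were all 1001 to 1021 bp wide and lay on U and 2RHet. The highest was U 2039330 to 2040338 with 3.38. Another 4 shared a score of 3.23, namely 2RHet 1253896 to 1254896 and U 900754 to 901774, 8469822 to 8470822 and 9125002 to 9126002. Another 5 shared a score of 3.06, namely 2RHet 325624 to 326624 and U 4865314 to 4866314, 7186388 to 7187388, 7399982 to 7400982 and 7755950 to 7756950. None of the 10 was overlapped by a region of either replicate. The nearest replicate region to any of them ended 915 bp away, beside U 8469822, in replicate 1. The highest scores on the other scaffolds were 2.64 on 3LHet (147932 to 148932, 1001 bp), 2.47 on 3RHet (1160650 to 1161700, 1051 bp), 1.64 on 2LHet (44960 to 46202, 1243 bp) and 0.42 on XHet (164752 to 165934, 1183 bp). None of these was overlapped by a replicate region either. On 2LHet and XHet neither replicate had a region, so no overlap was possible, and on 3LHet replicate 1 had none. All coordinates are those of FlyBase release 5.

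Chromosome 4 had few regions, and no 2 lists shared one there. In the combined list 3 were strong: 4 1338740 to 1339740 with a score of 1.38, 1314584 to 1316262 with 1.10 and 54220 to 55318 with 1.01. Another 3 scored between 0.67 and 0.88, at 812400 to 813552 (0.88), 254 to 1784 (0.73) and 22480 to 23712 (0.67). The remaining 7 scored between 0.26 and 0.42. They were 527020 to 528042 (0.42), 509442 to 510562 (0.40), 454238 to 455756 (0.39), 421804 to 422982 (0.36), 263348 to 264656 (0.36), 724300 to 725580 (0.33) and 1320998 to 1322660 (0.26). The 3 regions nearest the start of the sequence all scored above 0.5, as did 2 of the 3 nearest its end, a pattern noticed after the values were seen. Replicate 1 had 2 regions on chromosome 4, at 809958 to 811400 with a score of 1.93 and 1287172 to 1288513 with 0.40, and replicate 2 had 1, at 548086 to 549711 with 0.36. None of the 3 overlapped a combined-list region. The first ended 1000 bp before the combined-list region at 812400. With 0 of 13 overlapped, a share of up to 23.1% is allowed by this count.

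The replicates gave little support to regions on the outlying scaffolds, and none was overlapped by both. By an overlap of at least 1 bp, 22 of 298 were found in either replicate (7.38%, interval 4.93 to 10.9), against 1161 of 4837 on the large arms (24.0%, 22.8 to 25.2) and 23.0% of the whole list. The difference was -16.6 points (-19.4 to -12.9). Replicate 1 overlapped 16 of them (5.37%), against 541 on the large arms (11.2%), and replicate 2 overlapped 6 (2.01%), against 895 (18.5%). Overlap by both replicates was 0 of 298, which allows up to 1.01%, against 275 of 4837 (5.69%). The replicate lists held only 45 and 15 regions on the outlying scaffolds, against 628 and 1042 on the large arms. Only a part of the 298 could therefore be overlapped. The differences in share, also for overlap by both, partly restate these counts. By scaffold, the 22 were 15 on U (9.26%), 5 on 3RHet (4 in replicate 1 and 1 in replicate 2), 1 on 2RHet and 1 on 3LHet. U and the Het scaffolds did not differ beyond counting error, at 9.26% and 5.69% (difference 3.57 points, -3.06 to 9.75).

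The gap was widest for strong regions. Of the 135 strong regions on the outlying scaffolds 8 were overlapped by either replicate (5.93%, interval 3.03 to 11.3), against 158 of 201 on the large arms (78.6%, 72.4 to 83.7) and 49.4% of all strong regions, a difference of -72.7 points (-78.5 to -64.5). With 45 and 15 replicate regions on the outlying scaffolds, the 135 could hardly all be overlapped. On the large arms 628 and 1042 replicate regions faced the 201 strong ones, so the size of this gap depends on these counts too. The groups also differed in width. No strong outlying region was wider than 2137 bp, and of the 44 strong large-arm regions up to that width 1 was overlapped (2.27%). The gap was thus not seen at like width, with a boundary taken after the data were seen. The share was low on U, with 7 of 96 (7.29%, 3.58 to 14.3), and on the Het scaffolds, with 1 of 36 (2.78%, 0.492 to 14.2). On chromosome 4 it was 0 of 3. Among regions with a score under 1 the shares were 14 of 163 (8.59%, 5.19 to 13.9) and 1003 of 4636 (21.6%, 20.5 to 22.8). On the large arms the share overlapped was 21.3% for scores under 0.5 and 90.2% for scores from 2.5 to 3. On the outlying scaffolds it was 11.3% under 0.5, 6.93% from 0.5 to 1, 11.7% from 1 to 1.5 and 2.78% from 1.5 to 2, with overlapping intervals. There, 0 of the 39 regions with a score of at least 2 were overlapped, 29 of them on U and 10 on Het scaffolds. The upper limits were 14.9% from 2 to 2.5, 35.4% from 2.5 to 3 and 27.8% from 3 to 3.5. A total of 64 regions on the outlying scaffolds scored higher than any overlapped one there.

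**Figure D3:**
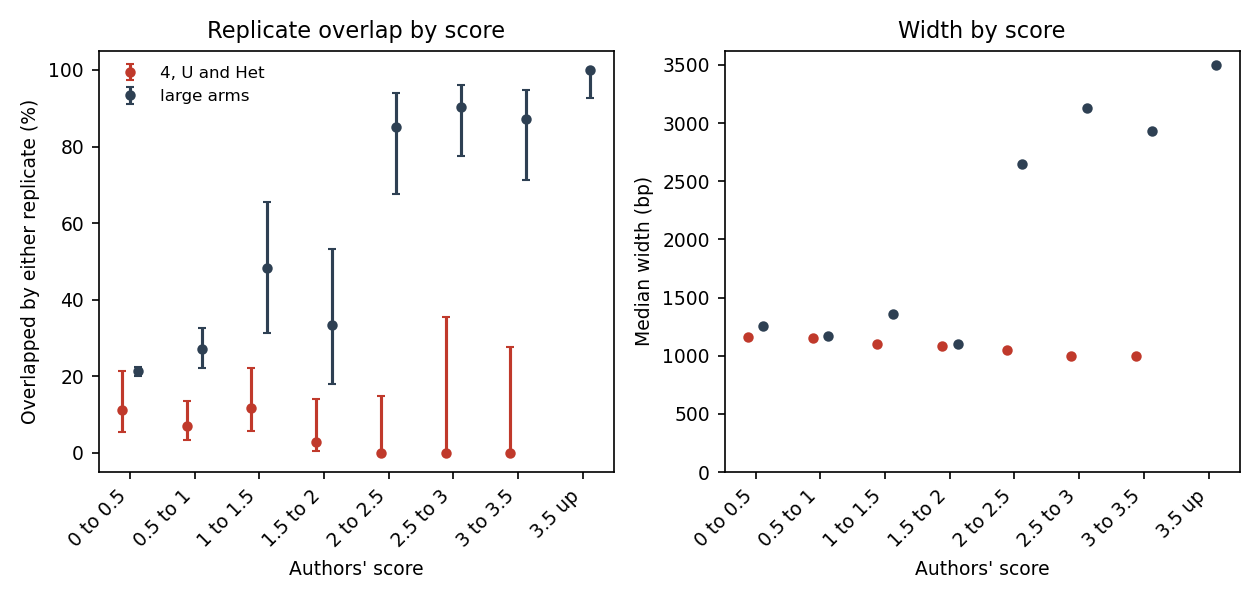
Share of combined-list regions overlapped by either replicate (left, percent, bars are 95% Wilson intervals) and median width in bp (right), by class of the authors' score, for the outlying scaffolds (red) and the large arms (dark). On the large arms share and width are both higher in the classes above 2, while on the outlying scaffolds no region above 2 was overlapped and the median width is 1001 bp in both classes from 2.5 to 3.5.

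Width went with these differences. Regions on the outlying scaffolds had a median width of 1099 bp (interval 1071 to 1137), against 1261 bp (1249 to 1277) on the large arms, and the widest, U 6047004 to 6049276, measured 2273 bp with a score of 0.31, against 9991 bp. A width of exactly 1001 bp, the narrowest in the combined list, was found for 49 of the 298 (16.4%, 12.7 to 21.1), against 223 of 4837 (4.61%, 4.05 to 5.24) and 5.30% of the list. Over the outlying scaffolds together these narrowest regions had a median score of 1.38 (1.09 to 1.96), against 0.86 (0.73 to 1.01) for the 173 of intermediate width and 0.84 (0.70 to 0.91) for the 76 of at least 1301 bp. This order was carried by U, where the medians were 1.75 (1.21 to 2.17), 1.11 (0.94 to 1.34) and 0.97 (0.84 to 1.11). On U the intervals of neighbouring classes overlapped, and only those of the narrowest and widest classes did not. On the Het scaffolds the medians were 0.62 (0.48 to 1.96), 0.65 (0.59 to 0.80) and 0.58 (0.44 to 0.83), and all intervals overlapped.

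Among strong regions the large arms held a wide kind that the outlying scaffolds did not. The strong regions on the outlying scaffolds had a median width of 1057 bp (1051 bp on U and 1065 bp on the Het scaffolds) and none was wider than 2137 bp, against a median of 2937 bp on the large arms. At that width, taken from the regions themselves after they were seen, the 201 strong regions of the large arms fell into 157 wider ones, from 2307 bp upwards, and 44 others with a median width of 1046 bp. Every one of the 157 was overlapped by a replicate, while 1 of the 44 was (2.27%, interval 0.402 to 11.8). The interval holds the 5.93% of the outlying scaffolds. No replicate region was narrower than 1301 bp. Among strong regions of at least 1301 bp, 5 of 27 on the outlying scaffolds were overlapped (18.5%, 8.18 to 36.7), against 158 of 160 on the large arms (98.8%, 95.6 to 99.7). These groups are not matched in width, since the 160 include the 157 that are wider than any strong outlying region. Too few of the 160 were of like width for a comparison. Among narrower strong ones the counts were 3 of 108 and 0 of 41.

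Many strong regions on the outlying scaffolds had exactly the score of another region. Scores were called tied when equal to 9 decimals. Of the 135 strong regions 95 were tied (70.4%, 62.2 to 77.4), against 34 of 201 on the large arms (16.9%, 12.4 to 22.7), a difference of 53.5 points (43.4 to 61.8). U had 66 tied of 96 (68.8%, 58.9 to 77.1) and the Het scaffolds 28 of 36 (77.8%, 61.9 to 88.3). All 34 belonged to the 44 narrow strong regions of the large arms, where 77.3% were tied, and none to the 157 wide ones. Over all scores the shares were 163 of 298 (54.7%, 49.0 to 60.3) and 2436 of 4837 (50.4%, 49.0 to 51.8), with 50.6% in the whole list, so ties as such did not set the outlying scaffolds apart. Below a score of 1 they were less frequent on U, at 33.3% against 51.8% (difference -18.5 points, -28.8 to -6.38). On the Het scaffolds the share was 47.1% (difference -4.69 points, -14.9 to 5.80). Of the 163 tied regions, 118 shared their score with a region of the large arms and 45 with other outlying regions only. The 135 strong regions took 76 distinct scores. The score found most often among them was 2.06, held by 9 regions of the list of which 4 lay on U and 3 on Het scaffolds. A score of 1.64 was held by 8 regions, 5 of them outlying, and scores of 2.64 and 3.06 by 7 regions each, again 5 of them outlying.

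Some of the shared scores lay on a regular ladder when read as base-2 logarithms, a reading the headers neither state nor deny. The score of 2.06 was taken as 4 steps, a choice made after the scores were seen, which makes 1 step 1.04 on the linear scale. Within a relative tolerance of 1e-06, the scores 1.06, 1.64, 2.38, 2.64, 3.06 and 3.23 were then 2, 3, 5, 6, 8 and 9 steps. These and 2.06 were 7 of the 36 distinct shared scores of strong outlying regions, and 32 of the 95 tied regions held one of them. The other shared scores, such as 1.38, 1.79 and 1.90 with 5 outlying regions each, were not whole multiples. Only whole multiples were counted, so a score off the ladder can still be a simple fraction of the same step. All 10 outlying regions with a score of at least 3 were whole multiples of the step, from 8 to 10 steps, against 4 of 80 such regions on the large arms (5.00%). The share was smaller in wider score classes. Among all strong regions 34 of 135 were whole multiples (25.2%, 18.6 to 33.1), against 13 of 201 on the large arms (6.47%, 3.82 to 10.7), and from 1.5 upwards 31 of 75 (41.3%, 30.9 to 52.6), against 11 of 172 (6.40%, 3.61 to 11.1). From a score of 2 upwards the counts were 26 of 39 (66.7%, 51.0 to 79.4) and 8 of 148 (5.41%, 2.76 to 10.3). On U they were 19 of 29 and on the Het scaffolds 7 of 10. Of the 26, 15 were 1001 bp wide. On the large arms all 13 strong regions on the ladder were among the 44 narrow ones, and none among the 157 wide ones. At widths of up to 2137 bp the counts were thus 13 of 44 on the large arms and 34 of 135 on the outlying scaffolds. The 4 large-arm regions on the ladder with a score of at least 3 were all 1001 bp wide. The shares against all large-arm regions are therefore not matched in width, and the ladder was not particular to the outlying scaffolds. What the whole numbers count is not stated in the files, and these shares are given as a description with no test, since the step came from scores of these regions.

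**Figure D4:**
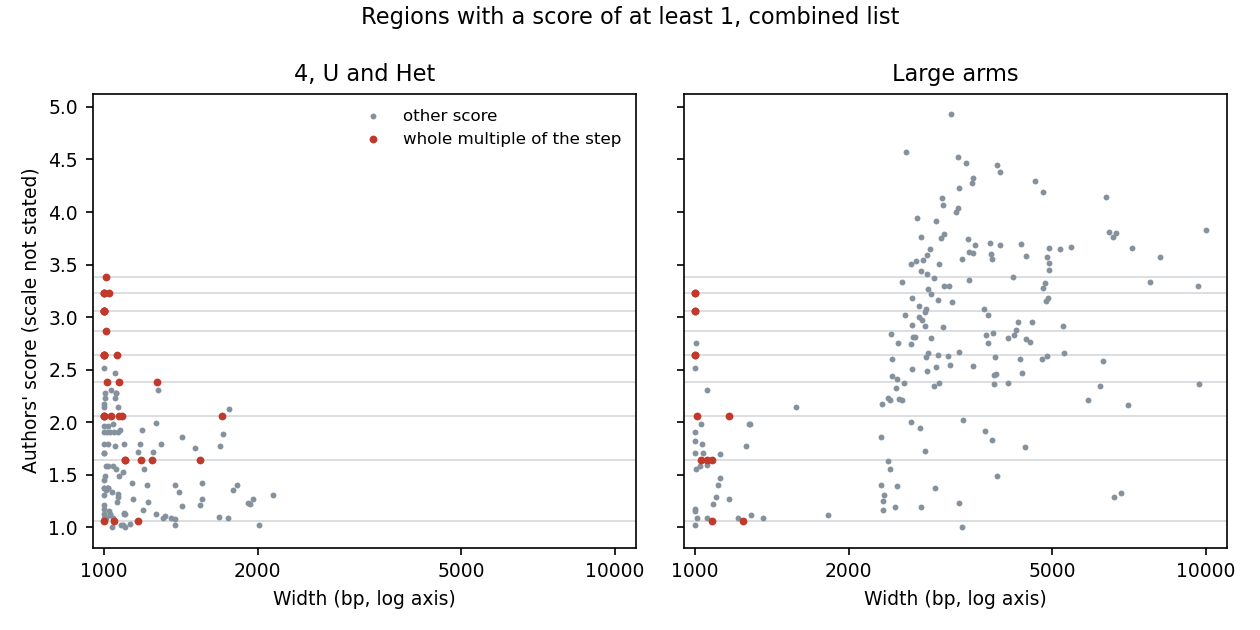
Score (vertical axis, scale not stated) against width in bp (horizontal log axis) for the strong combined-list regions of the outlying scaffolds (left) and the large arms (right). Grey lines mark 2 to 10 steps of the ladder and red points lie on a step; the outlying regions lie at 1001 to 2137 bp with their highest scores on steps near 1001 bp, and the large arms add a cloud from 2307 bp upwards with no point on a step.

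The 5 highest-scoring regions with support from a replicate, by score, were 4 on U and 1 on 3RHet. U 8731718 to 8733258 scored 1.64 in the combined list and 2.07 in replicate 1, with 1314 bp shared. U 7317144 to 7318522 scored 1.40, against 0.93 for a replicate 1 region that it shared 176 bp with. The same replicate 1 region also covered most of U 7315094 to 7316378, which scored 0.28. 3RHet 284316 to 285378 scored 1.29, against 1.52 in replicate 1. U 6218274 to 6220232 scored 1.27, against 1.96 in replicate 2, and U 3271680 to 3272702 scored 1.16, against 1.37 in replicate 2. In 21 of the 22 overlapping pairs the replicate's score was the higher one. The scores come from separate lists whose scaling is not stated, so these are values side by side. On U the 15 supported regions had a median score of 0.96 (0.60 to 1.09), against 1.17 (1.06 to 1.34) for the 147 without support, and on the Het scaffolds the 7 supported ones had 0.44 (0.39 to 0.94), against 0.64 (0.58 to 0.78) for 116. The intervals overlapped in both. The median width of all 22 was 1318 bp, against 1090 bp for the others.

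Seen from the replicate lists, most outlying regions had no partner in any other list. Replicate 1 had 45 regions on the outlying scaffolds (36 on U, 7 on Het scaffolds and 2 on chromosome 4) and replicate 2 had 15 (9, 5 and 1). No region of replicate 1 overlapped one of replicate 2, where 284 of 628 did on the large arms (45.2%). The closest pair lay 5648 bp apart on U and the next 6966 bp apart, also on U. On 3RHet the replicate 1 region at 283334 to 285320 and the replicate 2 region at 295707 to 297074 were 10.4 kb apart, and each overlapped a combined-list region of its own. This pair was picked out after the values were seen. The combined list overlapped 15 of the 45 replicate 1 regions (33.3%, 21.4 to 47.9), against 550 of 628 on the large arms (87.6%, 84.8 to 89.9) and 84.0% of the replicate 1 list. It overlapped 6 of the 15 of replicate 2 (40.0%, 19.8 to 64.3), against 897 of 1042 (86.1%, 83.9 to 88.1) and 85.4% of that list. Of the 36 regions of replicate 1 on U, 10 had a combined-list partner, and of its 7 on Het scaffolds 5 did.

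Strong regions made up a high share of those on U in each replicate too. In replicate 1, 25 of 36 regions on U were strong (69.4%, 53.1 to 82.0), against 26.6% on the large arms and 29.0% of the list. In replicate 2, 7 of 9 were (77.8%, 45.3 to 93.7), against 17.0% and 17.4%. Per Mb, strong regions on U were 0.468-fold as dense as on the large arms in replicate 2 (0.186 to 0.986; exact test, adjusted p = 0.0964), unlike the 1.77-fold of replicate 1. On the Het scaffolds 2 of 7 regions were strong in replicate 1 and 0 of 5 in replicate 2, and the highest scores there were 1.52 and 0.64. On U they were 3.89 and 3.59. Of the 28 strong outlying regions of replicate 1, 0 overlapped a replicate 2 region, which allows up to 10.7%, against 161 of 167 on the large arms (96.4%, 92.4 to 98.3). The combined list held 8 of these 28 (28.6%) and 4 of the 7 strong ones of replicate 2 (57.1%), against 164 of 167 and 177 of 177 on the large arms.

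The replicates also differed in how many regions they placed on U. Relative to its own large arms, U had 0.679 times the density in replicate 1 (exact interval 0.471 to 0.950; exact test, adjusted p = 0.0340) and 0.102 times in replicate 2 (0.0466 to 0.195; exact test, adjusted p = 7.67e-25), with intervals that do not overlap. The Het scaffolds had 0.143 times in replicate 1 (0.0572 to 0.296) and 0.0615 times in replicate 2 (0.0199 to 0.144). On chromosome 4 the ratio was 0.280 in replicate 1 (0.0339 to 1.02; exact test, adjusted p = 0.0795) and 0.0845 in replicate 2 (0.00214 to 0.472; exact test, adjusted p = 0.000257).

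Regions on most of the outlying scaffolds were far apart. The median gap from the end of one to the start of the next was 42.4 kb (interval 36.6 to 49.2), against 14.5 kb on the large arms. By scaffold it was 42.2 kb on U, 44.9 kb on the Het scaffolds and 42.5 kb on chromosome 4. Of the single Het scaffolds 2LHet was the exception, with a median of 14.0 kb over 6 gaps (quartiles 9.26 and 63.8 kb), close to that of the large arms. The medians of 2RHet, 3LHet and 3RHet were 48.7, 41.4 and 41.4 kb, and the single gap of XHet was 155 kb. The order of pieces within U is not a chromosomal order, so a gap on U is a distance in the file only. Gaps under 5 kb made up 8.93% of the gaps on the outlying scaffolds, against 23.8% on the large arms. Fewer regions per Mb make for wider gaps, so the longer median gap and the lower share of short gaps at least partly restate the densities. The closest neighbours, named after their values were seen, lay 229 bp apart on U, at 3148718 to 3149726 and 3149956 to 3151390, and both had a score of 0.79. With each sequence cut into 4 equal stretches, regions lay in every stretch of 2RHet (9, 11, 13 and 6 from the start of the sequence), of 3LHet (13, 11, 6 and 5) and of 3RHet (11, 11, 8 and 10). U held 35, 37, 44 and 46 in its stretches.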

How the data were processed

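The authors deposited lists of enriched regions with a score for each, and the scale of the score is not given in the sources used here, nor are the caller, its threshold or how the replicates were combined. Per the file headers, positions refer to FlyBase release 5. The submitters' processing notes name Bowtie 0.12.7. No list belonged to an input library alone.

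Every deposited region was used. Densities used header lengths. The 2-sided exact conditional binomial test compared counts with those of the large arms given the lengths, with Benjamini-Hochberg adjustment over 10 comparisons per list and score class. Shares have 95% Wilson intervals, differences Newcombe intervals, and where no region was found, 3 counts set the limit. Alternatives covered lengths, list, score, width, overlap and tie rules. The regions named are all of chromosome 4, the highest score of each scaffold, the 10 highest, the 5 highest with support, those in both replicates, the widest, and the most shared scores. Members, the boundary of 1 and this rule were chosen with earlier results of these data known. Functions were tested on simulated data. Read depth is unknown. Calculations ran in Python 3.11.15 with pandas 2.3.3, numpy 2.4.6 and scipy 1.17.1, and plots in matplotlib 3.10.9.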

Additional observations from a re-analysis of the deposited data

How the results depend on the processing

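For 14 results, 80 alternatives were computed. Of these, 48 kept the direction and side of the threshold or, for values with no test, stayed in the counting interval. Density ratios that kept the call could still move far. Some of the 48 could not change: the 2567 regions with the highest scores hold every strong region, so for strong regions that setting repeats the main values. The density of all outlying regions stayed below the large arms in every setting run (ratios from 0.0828 to 0.685). On chromosome 4 it did not pass the test in the replicate 1 list (0.280). The density of strong regions, added after the data were seen, turned to a ratio of 0.971 at widths of at least 1301 bp, 0.965 in the replicate 1 list and 0.228 in the replicate 2 list. On U it was 1.55 at that width, where it missed the threshold, and 0.468 in the replicate 2 list, and on the Het scaffolds 0.401 at that width, 0.154 in the replicate 1 list and 0 in the replicate 2 list. The cause was not tested. Support by a replicate ranged from 2.01% to 5.37% with 1 replicate left out, and from 2.22% to 3.70% for strong regions, which follows from using fewer regions. At widths of at least 1301 bp it was 14.5%, and 18.5% for strong regions, which leaves out regions narrower than any replicate region. Without U the support of strong regions was 2.56%, the median score 0.63 and the share of strong regions 28.7%. At widths of at least 1301 bp the share of strong regions was 35.5%, the median width 1506 bp, the share of tied scores 7.89% (ties counted among these regions only) and the median gap 174 kb. In the replicate 1 list the median score was 1.35, the strong share 62.2%, the median width 1525 bp, the tied share 24.4% and the median gap 156 kb. In the replicate 2 list the median score was 0.77, the median width 1451 bp, the tied share 26.7% and the median gap 893 kb; both lists are shorter and hold no region under 1301 bp. With the boundary at 0.8 and 1.5, added after the data were seen, 58.4% and 25.2% were strong. The median distance to the nearest centre was 20.7 kb, another measure than the gap. No paired analysis was possible because no list was given for either input library. Depth is unknown, which limits what can be said of scores in either direction.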
